A study of Mus musculus with 27 samples.

Results

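The samples compared were 6 tibialis anterior muscles taken 7 days after volumetric muscle loss (VML) and 5 tibialis anterior muscles without injury, 11 of the 27 samples of a mouse time series that also held days 3, 14 and 21. They were chosen by their labels alone, and the comparison ran over 14630 of the 54532 genes in the table, those with at least 0.5 FPKM in 5 or more samples of the series. FPKM is by definition the number of sequenced fragments scaled to the length of a gene and to the depth of a library. Levels of different genes can then be set side by side. In the deposited values the scale was not the depth alone. The denominator averaged 0.78 of the assigned reads in the uninjured samples and 1.18 at day 7. The mice were C57BL/6 males aged 8 weeks in both groups. In the injured group 40% of the muscle had been cut out and no graft, cell or drug was named. The uninjured group carried the treatment label Control. The sources differ on whether the muscle was removed from a single leg or from both, and none ties a sample to its animal, so that p-values measure only the spread between these samples. Poly(A) RNA of the whole explant was sequenced, and fewer cells of a type and less RNA per cell cannot be told apart in it.

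Skeletal muscle that has been damaged is rebuilt by satellite cells, the resident stem cells, which divide as myoblasts under Myod1, leave the cell cycle under Myog, fuse through Mymk and Mymx, and first build their sarcomeres from embryonic and neonatal isoforms before the adult ones replace them. Neutrophils and then macrophages clear the debris, and fibro-adipogenic progenitors, the mesenchymal cells of muscle, lay down a collagen matrix. After a small injury the matrix is resorbed, whereas after VML it is known to persist as a scar. The first week is the time at which these programs overlap.

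Depth was similar in both groups. Reads assigned to genes ranged from 15469920 to 21014569 in the uninjured samples and from 15382081 to 24436763 in the day 7 samples. The 6 day 7 samples did not form a tight group. On the first principal component of log2(FPKM + 1), which held 41.4% of the variance, the uninjured samples lay between -48.0 and -43.4, and the day 7 replicates 1 to 6 lay at 25.3, 9.0, -19.9, 39.1, 72.4 and -22.3. The plot of principal components shows replicates 3 and 6 nearest to the uninjured samples and replicate 5 among the day 3 samples. The SD of log2(FPKM + 1) had a median over genes of 0.334 at day 7 and 0.194 without injury, and it was larger at day 7 for 79.5% of genes. Values for day 7 are therefore given below in the order of replicates 1 to 6.

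**Figure D1:**
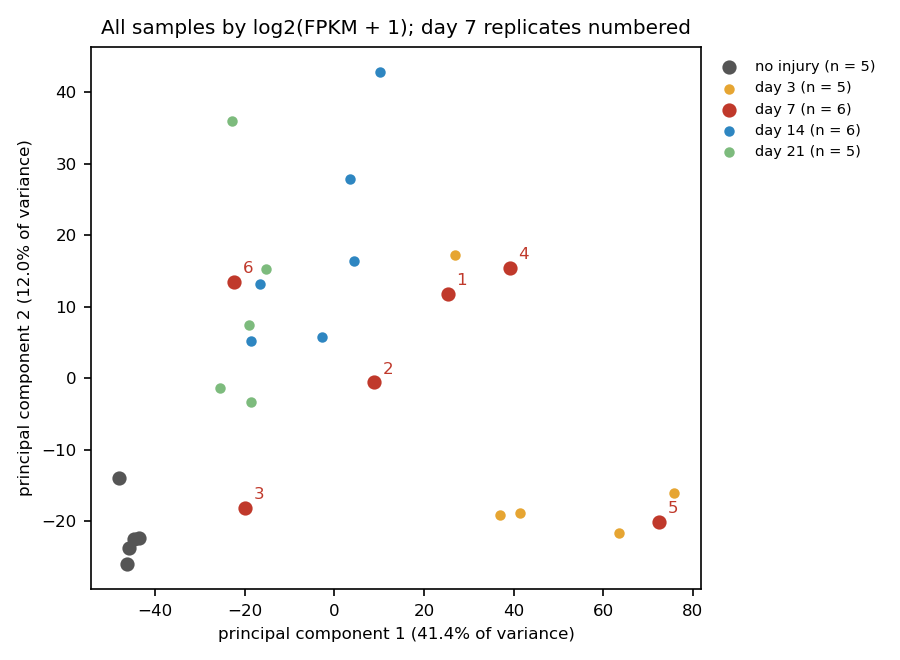
Principal components 1 and 2 (41.4% and 12% of variance) of log2(FPKM + 1) in all 27 samples, each point a sample and the day 7 points numbered by replicate. The 5 uninjured samples sit together at the lower left, and the 6 day 7 samples spread from -22.3 to 72.4 on the first component.

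At day 7, 4296 genes differed from uninjured muscle, 29.4% of those tested, with 2189 higher (15%) and 2107 lower (14.4%). The test was limma on log2(FPKM + 1) over all 27 samples, a gene was called at a Benjamini-Hochberg adjusted p under 0.05, and all log2 fold changes below are differences on that scale, which understates the change of genes with low FPKM. Increases were the larger, with 691 genes called higher by at least 1 on the log2 scale and 420 called lower by as much. Among the called genes, 998 (6.82% of all tested) had all 6 day 7 samples above all 5 uninjured ones, and 745 (5.09%) had all 6 below. The shares of 15%, 14.4%, 6.82% and 5.09% are the background for every count of list members below. The split between higher and lower depended on the scale of the samples. The deposited FPKM summed to between 626369 and 741650 in the uninjured samples and between 280074 and 718822 at day 7, and when every sample was brought to a common sum, 6304 genes were called higher and 209 lower, and the median log2 fold change of all tested genes moved from 0.03 to 0.48. Changes under that scale are read below against 0.48. Of 161 called genes named below, 24 lost the call when 1 of the 11 samples was left out, Tnnt3 and Jam2 with 9 samples each, Fbxo32 and Rgs5 with 8, Ckm and Prg2 with 7, and Cfd, Dnajb9, H19, Has3 and Tpm2 with 6.

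The called genes with the largest increases and no overlap between groups included genes of macrophages and of scar matrix. The largest of all was Ccl8, a chemokine that draws in monocytes, at chr11:82115185-82116799. It measured 28.8, 17.1, 23.9, 63.6, 92.6 and 10.7 FPKM in the day 7 samples and 0, 0, 0, 0.477 and 0 in the uninjured replicates 1 to 5 (4.86 ± 0.45 (SE), adjusted p = 3.3e-07). All 6 injured muscles expressed it, and 4 of the 5 uninjured muscles were listed at 0. Lgals3 (galectin 3, a lectin of activated macrophages) rose by 4.19 ± 0.56, from 0.688 to 2.28 FPKM to 12.9 to 300.4 FPKM. Cthrc1, a secreted protein of activated fibroblasts, measured 30.5, 21.4, 23.8, 30.3, 31.1 and 7.0 FPKM at day 7 and 0 to 1.09 without injury (4.14 ± 0.45 (SE), adjusted p = 2.0e-06). The other members of the leading 15 were Wfdc17, Postn, Ctss, Lyz2, Sfrp2, Col1a1, Spp1, Apoe, C1qa, Col3a1, Cd68 and Fcer1g, with log2 fold changes from 3.24 (Fcer1g) to 4.0 (Wfdc17). Sfrp2, a secreted modulator of Wnt signaling, was at 0 to 0.105 FPKM without injury and at 4.03 to 25.5 FPKM at day 7 (3.56 ± 0.44 (SE), adjusted p = 6.7e-06).

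The largest decrease without overlap was that of the transcript B230312C02Rik (-2.89 ± 0.37), followed by Pfkfb3 and Nmrk2. Pfkfb3, whose product makes the activator of the glycolytic enzyme phosphofructokinase, measured 2.36, 1.76, 4.15, 1.62, 5.6 and 4.92 FPKM at day 7 and 15.01, 26.7, 30.997, 36.1 and 25.2 without injury (-2.7 ± 0.30 (SE), adjusted p = 2.1e-06). Nmrk2, the muscle enzyme that makes NAD from nicotinamide riboside, at chr10:81198170-81202051, measured 37.1, 47.7, 29.9, 39.2, 43.8 and 15.6 FPKM at day 7 and 221, 175, 221, 237 and 197 without injury (-2.6 ± 0.27 (SE), adjusted p = 2.0e-06). In both genes the highest injured sample was far below the lowest uninjured sample. Replicate 6, which lay near the uninjured samples on the first component, was the lowest of the 6 for Nmrk2. Also in this group were Ckmt2, the mitochondrial creatine kinase of the sarcomere (-2.0 ± 0.37), Perm1, a regulator of muscle mitochondria (-2.03 ± 0.38), Fabp3, the fatty acid carrier of muscle (-1.84 ± 0.32), the phosphatase Dusp26 (-2.01 ± 0.40), Chac1, which degrades glutathione (-2.22 ± 0.41), and the clock repressor Nr1d1 (-1.98 ± 0.23). The transcripts Gm49477 (-2.09 ± 0.47) and BC048679 (-1.79 ± 0.41) fell as well. The mitochondrial tRNA genes mt-Ts2, mt-Tl2, mt-Tg and mt-Th completed the 15, with log2 fold changes from -2.28 to -1.99. Such genes are shorter than a sequenced fragment and adjoin protein genes, so reads of their neighbors cannot be told apart from theirs.

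The myoblast regulators Myog and Myod1 were above the uninjured range in replicates 1, 2, 4 and 5 and inside it in replicates 3 and 6. Of 18 tested myogenic regulators and satellite cell genes, 3 were called higher and 1 lower, against 15% and 14.4% over all genes, and their median log2 fold change was 0.22. Myog (myogenin, chr1:134289989-134292548), the factor that commits myoblasts to differentiate, measured 65.97, 56.6, 2.32, 77.3, 121 and 1.5 FPKM at day 7 and 2.51, 1.63, 2.34, 0.761 and 1.65 without injury (3.27 ± 0.75 (SE), adjusted p = 0.0027). The call of Myog ended when the fit was weighted by read counts recovered from the FPKM (adjusted p = 0.067). Myod1, the determination factor, measured 66.4, 54.8, 21.98, 73.2, 80.1 and 21.6 FPKM at day 7 and 13.9 to 22.6 without injury (1.27 ± 0.32 (SE), adjusted p = 0.0051), again with replicates 3 and 6 inside that range. Vcam1, an adhesion molecule of satellite cells and endothelium, rose from 0.231 to 0.509 to 0.28 to 2.21 FPKM (0.73 ± 0.17 (SE), adjusted p = 0.0027). Myf6, the factor of mature fibers, reached 266, 273, 86.02, 297, 54.6 and 63.2 FPKM against 60.1 to 80.8 but did not pass the test (0.95 ± 0.37 (SE), adjusted p = 0.055).

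Of 12 tested fusion genes, 7 were called higher and 2 lower, against 15% and 14.4% of all genes. Mymk (myomaker, chr2:27061636-27072179), the membrane protein without which myoblasts do not fuse, measured 27.6, 15.2, 0.583, 33.5, 40.4 and 1.75 FPKM at day 7 and 0.0994, 0.192, 0.62, 0.161 and 0.136 without injury (3.28 ± 0.62 (SE), adjusted p = 0.00063). Its partner Mymx measured 8.01, 7.29, 0.0572, 15.7, 25.5 and 0 FPKM at day 7 and 0 to 0.466 without injury (2.4 ± 0.75 (SE), adjusted p = 0.019). Replicate 5 was the highest of the 6 for both genes, and replicates 3 and 6 were the lowest. The call of Mymx ended with the read weights (adjusted p = 0.12). Myof, a membrane repair protein used in fusion, rose in all 6 samples, from 0.197 to 0.361 to 0.857 to 5.07 FPKM (1.02 ± 0.22 (SE), adjusted p = 0.0014). Tmem182, an inhibitor of fusion, and the adhesion molecule Jam2 fell (-0.86 ± 0.24 and -0.55 ± 0.20), with Jam2 at 0.044 under the common sum.

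Developmental sarcomere isoforms followed with 8 of 12 called higher, 0 lower and a median log2 fold change of 2.04, against 0.03 over all genes. The embryonic myosin heavy chain Myh3 measured 38.02, 24.1, 0.436, 49.7, 20.1 and 0.967 FPKM at day 7 and 0.669, 0.566, 0.633, 0.228 and 0.485 without injury (2.99 ± 0.65 (SE), adjusted p = 0.0018). The neonatal myosin heavy chain Myh8 measured 31.6, 17.4, 0.409, 55.3, 1.81 and 0.784 FPKM at day 7 and 0.168 to 0.985 without injury (2.57 ± 0.71 (SE), adjusted p = 0.0088). Myh3 in replicate 5 stood near that in replicate 2, whereas Myh8 in replicate 5 was under 2 FPKM. Of the 8 members called, replicates 1 to 6 exceeded every uninjured sample for 8, 8, 0, 8, 8 and 6 members. Mybph, a myosin binding protein of young fibers, was at 1.45 to 114 FPKM (2.84 ± 0.73 (SE), adjusted p = 0.0055). The slow troponins Tnni1 and Tnnt1, which developing fibers also use, rose by 2.51 ± 0.53 and 2.28 ± 0.50. With only the 2 groups in the fit the calls of Myh8 and Mybph ended (adjusted p = 0.061 and 0.059), and that of Mybph also ended with the read weights (0.051).

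**Figure D2:**
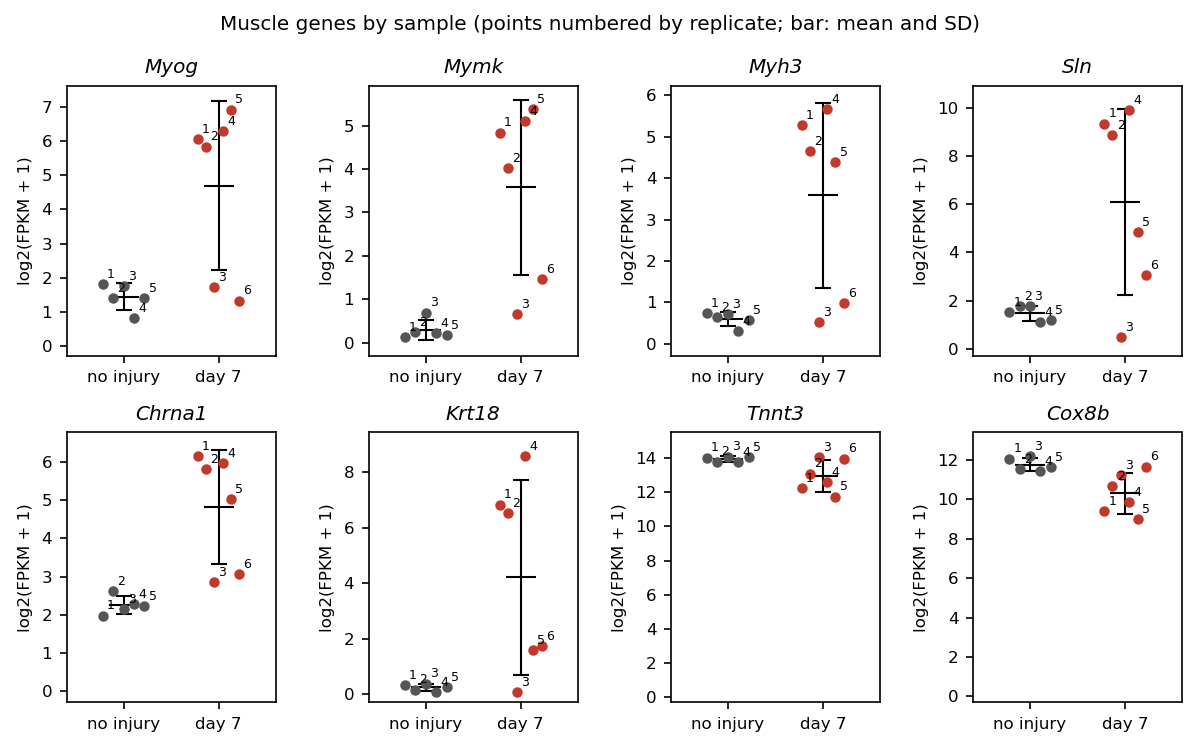
log2(FPKM + 1) of 8 muscle genes in the 5 uninjured and 6 day 7 samples, points numbered by replicate, with the mean and SD. For Myog, Mymk, Myh3, Sln, Chrna1 and Krt18, replicates 3 and 6 lie far below replicates 1, 2 and 4, and for Tnnt3 replicates 3 and 6 lie above the other 4.

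Sarcoplasmic reticulum and keratin genes showed the widest spread. Sln (sarcolipin, chr9:53850164-53854560), a small peptide that uncouples the calcium pump, measured 655, 466, 0.401, 972, 28.1 and 7.37 FPKM at day 7 and 1.88, 2.42, 2.39, 1.17 and 1.3 without injury (4.62 ± 1.08 (SE), adjusted p = 0.0029). It had the largest SD among the day 7 samples of all tested genes, and its call ended with the read weights (adjusted p = 0.12). Krt18, a keratin of simple epithelia that regenerating fibers can also express, measured 113, 91.8, 0.0408, 381, 2.0 and 2.29 FPKM at day 7 and 0.0565 to 0.297 without injury (3.98 ± 1.0 (SE), adjusted p = 0.0048), and its partner Krt8 measured 47.5, 31.3, 0.03, 87.7, 2.23 and 0 FPKM and 0 to 0.131 FPKM (3.07 ± 0.84 (SE), adjusted p = 0.0082). Replicates 1, 2 and 4 were high for all 3 genes and replicate 3 was within or below the uninjured range for all 3. The calls of Krt18 and Krt8 ended with the read weights (adjusted p = 0.27 and 0.18) and with only the 2 groups in the fit (0.056 and 0.069). Of the other epidermis markers, Krt5, Krt14, Krt1, Krt15, Lor, Flg, Dsp and Dsg3 stayed under 0.5 FPKM in all 11 samples, and Krt10 and Sfn were not called.

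Acetylcholine receptor and synapse genes were called higher for 9 of 17 members and lower for 1, against 15% and 14.4% of all genes. Fetal and denervated fibers carry a receptor with the gamma subunit Chrng along their length, and innervated adult fibers replace it with the epsilon subunit Chrne at the synapse. Chrng measured 8.62, 7.62, 0.183, 9.61, 8.6 and 0.424 FPKM at day 7 and 0 to 0.137 without injury (2.22 ± 0.53 (SE), adjusted p = 0.0036). Chrne measured 11.2, 13.9, 30.01, 14.6, 2.97 and 31.4 FPKM at day 7 and 9.37 to 19.2 without injury and was not called (0.16 ± 0.43 (SE), adjusted p = 0.81). Chrne was highest in replicates 3 and 6, in which Chrng was lowest, and the call of Chrng ended with the read weights (adjusted p = 0.061). The alpha subunit Chrna1 rose from 2.93 to 5.11 to 6.21 to 70.5 FPKM with no overlap (2.57 ± 0.56 (SE), adjusted p = 0.0018). Runx1, Ncam1 and Gadd45a, which rise in denervated muscle, rose by 1.75 ± 0.38, 1.44 ± 0.28 and 2.32 ± 0.59. Rapsn, which clusters the receptor, fell by 0.58 on the log2 scale (adjusted p = 0.018) and was at 0.12 under the common sum.

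The promoters of Chrna1, Chrng and Mybph are shown because these 3 called genes hold the E-box CAGCTG, the site that myogenic factors such as Myod1 and Myog are known to bind. Windows run from 250 bases before to 50 bases after the start (RefSeq, GRCm38.p6) and are printed 5′ to 3′ on the strand of the gene, with the E-box in capitals. The motif is its own reverse complement, so a match stands on both strands. It was found in 4 of 11 acetylcholine receptor and synapse genes with a window, in 3 of 12 developmental sarcomere genes, in 1 of 8 fusion genes and in 0 of 11 myogenic regulators, against 18.3% of 27025 genes over all promoters. The windows lie at chr2:73580289-73580588 (minus strand), chr1:87205561-87205860 (plus strand) and chr1:134193198-134193497 (plus strand).
Chrna1 promoter: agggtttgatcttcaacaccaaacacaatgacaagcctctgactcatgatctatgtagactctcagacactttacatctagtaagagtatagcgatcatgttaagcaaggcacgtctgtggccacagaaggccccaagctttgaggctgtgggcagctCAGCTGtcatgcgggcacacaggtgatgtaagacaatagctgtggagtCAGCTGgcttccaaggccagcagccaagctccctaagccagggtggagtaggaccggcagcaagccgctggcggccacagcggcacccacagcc
Chrng promoter: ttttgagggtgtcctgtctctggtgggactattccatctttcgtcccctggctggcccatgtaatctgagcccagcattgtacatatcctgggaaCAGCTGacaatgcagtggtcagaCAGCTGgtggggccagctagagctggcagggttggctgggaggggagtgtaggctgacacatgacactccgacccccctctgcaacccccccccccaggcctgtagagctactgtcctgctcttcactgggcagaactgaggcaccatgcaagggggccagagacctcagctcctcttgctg
Mybph promoter: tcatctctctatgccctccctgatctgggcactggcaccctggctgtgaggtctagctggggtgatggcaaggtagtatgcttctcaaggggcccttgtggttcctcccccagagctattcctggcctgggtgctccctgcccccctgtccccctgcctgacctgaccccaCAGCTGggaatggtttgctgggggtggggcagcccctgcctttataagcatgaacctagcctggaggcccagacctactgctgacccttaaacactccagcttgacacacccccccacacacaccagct
The E-boxes begin 92 and 44 bases before the start of Chrna1, 155 and 132 bases before that of Chrng, and 79 bases before that of Mybph.

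Of 20 adult fast fiber sarcomere genes, which define the labelled tissue, 19 averaged at least 37.3 FPKM in both groups, and the other, Tnnc2, singled out after its values were seen, was under 1 FPKM in all 11 samples. Acta1, the skeletal actin, measured 13042 to 29739 FPKM at day 7 and 27749 to 38017 without injury, and was not called (-0.74 ± 0.30 (SE), adjusted p = 0.062). Of these 20 genes, 7 were called lower and none higher, with a median log2 fold change of -0.87 that was -0.14 under the common sum. The fast troponin Tnnt3 measured 4794, 8693, 16882, 6170, 3411 and 15991 FPKM at day 7 and 13654 to 17315 without injury (-0.99 ± 0.37 (SE), adjusted p = 0.043), a decrease that turned to 0.11 under quantile normalization. Replicates 3 and 6 lay within the uninjured range, and the other 4 lay below it. Mylk2, the skeletal myosin light chain kinase, fell in all 6 samples (-1.73 ± 0.32 (SE), adjusted p = 0.00056), and Tpm1, Ckm and Tpm2 fell by 1.17, 0.91 and 0.84 on the log2 scale, with Ckm at 0.12 and Tpm2 at 0.064 under quantile normalization. Pvalb, the calcium buffer of fast fibers, measured 4387, 6919, 23853, 6402, 2792 and 22844 FPKM and was not called (-1.21 ± 0.51 (SE), adjusted p = 0.072).

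Of 12 slow fiber genes, 3 were called higher and 1 lower, against 15% and 14.4% of all genes. Atp2a2, the slow-fiber calcium pump, rose in every sample, from 3.34 to 5.35 to 7.39 to 36.7 FPKM (1.87 ± 0.26 (SE), adjusted p = 2.5e-05). Myl3, a slow myosin light chain, fell (-2.14 ± 0.70 (SE), adjusted p = 0.024), with uninjured samples ranging from 12.3 to 199 FPKM. Replicate 6 differed from the other 5 in this group, with Tnnt1 at 102 FPKM, Tnnc1 at 153 FPKM and the slow myosin light chain Myl2 at 177 FPKM, against 17.4 FPKM at most for Myl2 in the other day 7 samples. Excitation and calcium handling genes were called lower for 10 of 17 and higher for 2, Sln and Rrad, against 14.4% and 15% of all genes. The median of the list was -0.81 as deposited, -0.35 under quantile normalization and -0.098 under the common sum. The medians of all genes under the last 2 were -0.051 and 0.48. Rrad, a small GTPase that restrains calcium channels, measured 56.8, 98.5, 3.95, 101, 33.9 and 2.24 FPKM at day 7 and 0.921 to 5.46 without injury (3.3 ± 0.71 (SE), adjusted p = 0.0016). Trdn and Mrln, which sit with the calcium stores, fell (-1.21 ± 0.38 and -1.19 ± 0.40), as did Jph1 and Jph2, which hold the membranes of the triad together (-1.0 ± 0.27 and -0.97 ± 0.30). The calls of Trdn, Mrln, Jph1 and Jph2 ended under the common sum. Those of Jph2 and Mrln also ended under quantile normalization (limma adjusted p = 0.099 and 0.054). The atrophy list gave 2 called lower of 12, Fbxo31 (-0.71 ± 0.18) and Fbxo32 (atrogin-1, -0.79 ± 0.29), against 14.4% of all genes, and the ubiquitin ligase Trim63 was not called (-0.10 ± 0.25 (SE), adjusted p = 0.81).

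Nuclear genes of the respiratory chain were lower at day 7. Of 36 complex I subunits, 29 were called lower, and of 42 subunits of complexes II, III and IV and ATP synthase, 36 were, against 14.4% of all genes. No member of either list was called higher. The median log2 fold changes were -0.98 and -1.0, and -0.26 and -0.27 under the common sum, where that of all genes was 0.48. Ndufv2 and Ndufs7, which belong to the core of complex I, measured 110.4, 222, 254, 129, 85.8 and 269 FPKM and 113, 289.5, 302, 152, 117 and 373 FPKM at day 7, against 311 to 483 FPKM and 408 to 619 FPKM without injury (-1.22 ± 0.29 and -1.31 ± 0.30). Every injured sample lay below every uninjured sample for both. Cox7a1 and Cox8b, the muscle forms of 2 subunits of cytochrome c oxidase, fell by 1.54 and 1.45 on the log2 scale (adjusted p = 0.0051 and 0.0094), although Cox8b in replicate 6 (3208 FPKM) lay inside the uninjured range of 2733 to 4596 FPKM.

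The 13 protein genes of the mitochondrial genome were called lower for 11 members, with a median of -1.44, and 0 of them were without overlap between groups. The median was -0.31 under quantile normalization and -0.72 under the common sum, where those of all genes were -0.051 and 0.48. mt-Co3 measured 171, 400.2, 437, 169, 157 and 1998 FPKM at day 7 and 1516, 3783, 3020, 3346 and 1059 without injury (-2.73 ± 0.56 (SE), adjusted p = 0.0011). The mean log2(FPKM + 1) of the 13 genes was 9.85, 10.8, 11.1, 9.53, 9.66 and 12.3 in day 7 replicates 1 to 6 and 11.7 to 12.4 in the uninjured samples. Replicates 1 to 5 lay below that range and replicate 6 lay within it. Reads of the mitochondrial chromosome made up 9.76%, 13.1%, 13.7%, 7.94%, 8.32% and 28.4% of reads in replicates 1 to 6 and 17.7% to 24.9% without injury.

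All 19 citric acid cycle enzymes were called lower, with a median of -0.99 (-0.26 under the common sum), against 14.4% of all genes. Of the 19, 14 had no overlap between groups, against 5.09% of all genes. Mdh1, Mdh2 and Idh3a, dehydrogenases of the cycle and its shuttle, fell by 1.32, 1.14 and 1.17 on the log2 scale. Fatty acid uptake and oxidation genes were called lower for 19 of 22. The uncoupling protein Ucp3 measured 11.2, 10.7, 15.3, 11.1, 11.03 and 14.1 FPKM at day 7 and 41.4, 35.5, 36.1, 30.2 and 39.7 without injury (-1.51 ± 0.16 (SE), adjusted p = 2.0e-06). All 6 injured muscles were within 10.7 to 15.3 FPKM, so this gene lacked the spread of the muscle genes above. Mlycd, which removes the block on fatty acid import into mitochondria, fell from 36.8 to 47.7 to 11.4 to 23.2 FPKM (-1.39 ± 0.16 (SE), adjusted p = 2.2e-06), and Acadm, a dehydrogenase of medium-chain fatty acids, fell by 1.25 on the log2 scale. Of 14 regulators of mitochondrial biogenesis, 8 were called lower, among them Ppargc1a (PGC-1 alpha, -0.91 ± 0.19 (SE), adjusted p = 0.0016) and the receptors Esrra and Esrrg (-0.94 ± 0.22 and -0.69 ± 0.18), and the median of this list, -0.50, was 0.089 under the common sum, where that of all genes was 0.48.

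Glycolysis genes moved by isoform. Of 20 muscle glycolysis and glycogen genes, 15 were called lower and 1 higher, and of 11 genes of glycolysis in other cell types, 6 were called higher and 1 lower. Pfkm, the phosphofructokinase of muscle, measured 408, 723, 1159, 321, 382 and 866 FPKM at day 7 and 1405 to 1574 without injury (-1.35 ± 0.29 (SE), adjusted p = 0.0016), with no overlap. The glucose transporter of muscle, Slc2a4, fell by 1.24 on the log2 scale, and the muscle mutase Pgam2 by 1.27. Slc2a1, the transporter of most other cells, rose (0.74 ± 0.19 (SE), adjusted p = 0.0058), as did the mutase Pgam1 (1.04 ± 0.36 (SE), adjusted p = 0.03), the enolase Eno1 (0.87 ± 0.26 (SE), adjusted p = 0.014) and Hk3, the hexokinase of myeloid cells (0.99 ± 0.32 (SE), adjusted p = 0.023). Replicate 5 gave the highest value of the 6 for Pgam1, Eno1 and Hk3. Slc16a3, the lactate exporter, which is abundant in fast fibers, fell (-1.36 ± 0.33 (SE), adjusted p = 0.004).

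Macrophage genes were higher in all 6 injured muscles. Of 19 tested macrophage markers, 15 were called higher and none lower, against 15% and 14.4% of all genes. Of the 19, 12 were called higher with no overlap between groups, against 6.82% of all genes. The median log2 fold change was 1.75. Lyz2 (lysozyme, chr10:117277331-117282321) measured 217, 224, 105, 338, 1682 and 36.7 FPKM at day 7 and 14.1, 19.3, 12.6, 17.6 and 20.7 without injury (3.64 ± 0.59 (SE), adjusted p = 0.00013). Cd68, a lysosomal protein of macrophages, measured 20.2, 20.2, 9.95, 47.1, 226 and 3.19 FPKM at day 7 and 1.25, 0.924, 2.37, 2.2 and 1.3 without injury (3.28 ± 0.62 (SE), adjusted p = 0.00059). In both genes replicate 5 was several times higher than the next sample and replicate 6 was the lowest, yet above every uninjured sample. C1qa, C1qb and C1qc, the chains of complement C1q that tissue macrophages make, rose by 3.31 ± 0.48, 3.16 ± 0.53 and 3.07 ± 0.42. Itgam and Cx3cr1, which macrophages share with monocytes, were not called (0.96 ± 0.38 (SE), adjusted p = 0.055, and 0.70 ± 0.35 (SE), adjusted p = 0.14).

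**Figure D3:**
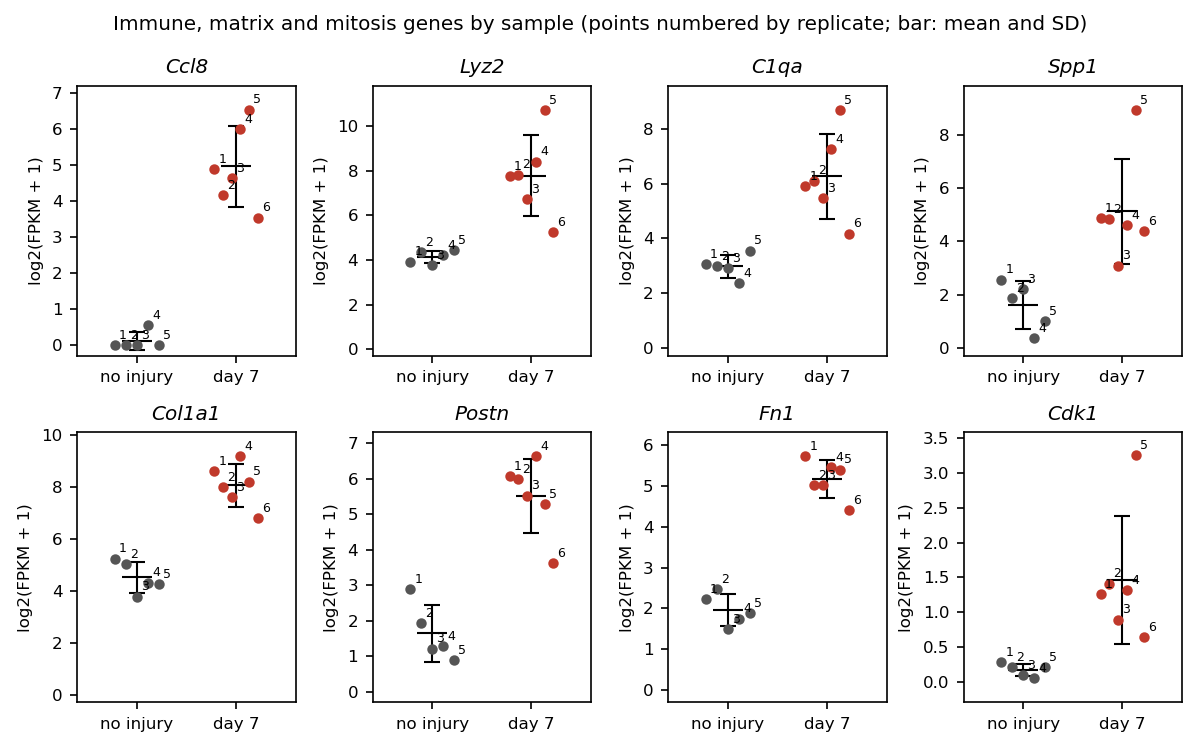
log2(FPKM + 1) of 8 immune, matrix and mitosis genes in the 5 uninjured and 6 day 7 samples, points numbered by replicate, with the mean and SD. In all 8 panels the 6 day 7 points lie above the 5 uninjured points, with replicate 5 highest for Ccl8, Lyz2, C1qa, Spp1 and Cdk1 and replicate 6 lowest in 7 of the 8 panels.

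Genes of repair and scar macrophages were called higher for 12 of 19 and lower for 2. Spp1 (osteopontin) measured 28.6, 27.6, 7.55, 23.5, 493 and 20.1 FPKM at day 7 and 4.92, 2.68, 3.67, 0.296 and 0.995 without injury (3.52 ± 0.82 (SE), adjusted p = 0.0029). Gpnmb, a glycoprotein of lipid-laden macrophages, measured 5.62, 4.81, 1.56, 5.96, 48.3 and 0.419 FPKM at day 7 and 0.0346 to 0.294 without injury (2.41 ± 0.65 (SE), adjusted p = 0.0073). Hmox1, the heme oxygenase, measured 14.01, 22.8, 8.75, 40.2, 261 and 7.1 FPKM and 2.38 to 6.47 FPKM (2.36 ± 0.61 (SE), adjusted p = 0.006). Apoe, the lipoprotein that carries cell lipid, rose from 32.5 to 41.9 to 104 to 1622 FPKM. Spp1, Gpnmb, Hmox1 and Apoe were all highest in replicate 5, and the call of Gpnmb ended with the read weights (adjusted p = 0.059). The alternative-activation genes Retnla and Chil3 differed in place from these and were not called. Retnla measured 1.49, 17.8, 53.2, 1.84, 4.89 and 72.2 FPKM, highest in replicates 3 and 6, and Chil3 measured 0.228, 0, 0, 0.433, 22.8 and 0 FPKM, with nearly all of it in replicate 5.

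The lysosome and phagocytosis list gave 19 of 27 called higher, complement 15 of 15, and inflammatory cytokines and receptors 13 of 16. Dendritic cell and MHC class II genes gave 10 of 12. Over all genes the share was 15%, and none of these lists had a member called lower. The dendritic cell markers Zbtb46 and Clec9a were the tested members not called. They averaged 0.813 and 0.353 FPKM at day 7, against 0.877 and 0.388 FPKM without injury. Xcr1 was not tested (0.203 and 0.216 FPKM). Itgax, Ccr7, Batf3 and Cd209a were called higher. Ctss, the cathepsin that prepares antigens, rose by 3.8 ± 0.64, and Tyrobp and Fcer1g, adaptors of activating receptors, by 3.14 ± 0.56 and 3.24 ± 0.47. The MHC class II chains H2-Aa, H2-Ab1 and H2-Eb1 and the chain Cd74 rose by 2.36 ± 0.36, 2.14 ± 0.32, 2.38 ± 0.34 and 2.16 ± 0.37. H2-Eb1 measured 61.3, 71.9, 33.2, 138, 122 and 29.9 FPKM at day 7 and 5.69 to 17.5 without injury, and here replicate 4, not replicate 5, was the highest. C4b rose from 0.114 to 1.0 to 2.85 to 10.6 FPKM (2.23 ± 0.27 (SE), adjusted p = 6.4e-06).

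Chemokine ligands were called higher for 11 of 20 members and lower for 1. Beside Ccl8, the monocyte attractants Ccl7, Ccl12 and Ccl2 rose (2.21 ± 0.58, 1.85 ± 0.34 and 1.61 ± 0.55), as did Ccl6 and Ccl9 (2.63 ± 0.51 and 1.96 ± 0.39). Ccl2 measured 1.18, 0.822, 0.877, 1.32, 40.8 and 2.68 FPKM at day 7 and 0 to 0.511 without injury, so that replicate 5 alone was above 3 FPKM, and its call ended with the read weights (adjusted p = 0.062) and with only the 2 groups in the fit (0.11). Ccl11, the eosinophil attractant, fell (-0.75 ± 0.23 (SE), adjusted p = 0.017). The receptors Csf2ra, Il3ra and Tnfrsf1b rose by 2.16 ± 0.40, 1.47 ± 0.25 and 1.32 ± 0.38. Of 14 genes named for the protein panel of the study, 7 were tested and 3 called higher, Ccl2, Ccl12 and Timp1, against 15% of all genes. These are RNA levels at day 7. For protein, the study reported significantly lower MCP-5 (the product of Ccl12) and TIMP-1 after VML, the opposite direction, and its text names no day for them. Il1b was not called, with 0.527, 0, 0, 0.116, 9.18 and 0 FPKM at day 7 and 0 to 0.17 without injury. Interferon-response genes were called higher for 5 of 20, against 15% of all genes. Ifitm3 (1.22 ± 0.25 (SE), adjusted p = 0.0012) and Oas1a (1.22 ± 0.36 (SE), adjusted p = 0.013) led them. Isg15 was not called and measured 3.94, 3.59, 5.36, 25.2, 22.3 and 11.5 FPKM, highest in replicates 4 and 5, against 2.03 to 6.06 FPKM without injury.

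Most markers of other leukocytes were near the floor. Of 13 neutrophil markers, 4 passed the expression filter and 2 were called higher, S100a8 (2.33 ± 0.57 (SE), adjusted p = 0.0042) and Csf3r (1.06 ± 0.36 (SE), adjusted p = 0.031). The call of Csf3r ended when any 1 of 4 samples was left out (adjusted p = 0.054 to 0.074). It also ended with no filter on low values (0.075), with only the 2 groups in the fit (0.13) and under quantile normalization (0.057). S100a8 measured 14.1, 15.1, 0.423, 8.47, 45.9 and 1.5 FPKM at day 7 and 0.0984 to 1.62 without injury. S100a9 measured 4.71, 5.29, 1.01, 2.2, 41.6 and 3.23 FPKM and was not called (1.27 ± 0.56 (SE), adjusted p = 0.083). Ly6g, Cxcr2, Camp, Ltf, Elane and Mpo stayed under 0.5 FPKM in all 11 samples. Mmp8, Retnlg and Ngp were not tested and reached 0.769, 1.02 and 0.615 FPKM at day 7, against at most 0.38 FPKM without injury. The tested neutrophil markers summed to 0.63 to 4.31 FPKM in uninjured and to 1.86 to 101 FPKM in injured muscle, with the highest in replicate 5. Of 20 T, B and NK cell markers, 5 passed the filter and none was called. Cd3d, Cd3g, Cd8a, Foxp3, Il2ra, Ctla4, Ms4a1, Klrb1c and Prf1 were under 0.5 FPKM throughout. Cd4, Cd8b1, Gzmb, Ncr1 and Cd3e did not pass the filter and were not tested. Their highest values at day 7 were 1.29, 0.685, 0.769, 0.689 and 0.944 FPKM, against 0, 0, 0, 0.0975 and 0.527 FPKM without injury. Of the mast cell and eosinophil markers, 1 of 6 tested was called higher, against 15% of all genes. It was the eosinophil granule gene Prg2 (0.56 ± 0.20 (SE), adjusted p = 0.032), at 0 to 1.42 FPKM. The other eosinophil markers Siglecf, Ccr3 and Epx were under 0.5 FPKM. The call of Prg2 also ended with no filter on low values (adjusted p = 0.063) and with only the 2 groups in the fit (0.068).

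Most fibrillar collagen genes were higher in all 6 injured muscles, those with Myog inside the uninjured range included. Of 13 fibrillar collagens and fibril regulators, 11 were called higher and none lower, with a median log2 fold change of 2.1. Of the 13, 9 were called higher without overlap. Over all genes these shares were 15% higher, 14.4% lower and 6.82% higher without overlap. Col1a1, a chain of type I collagen, at chr11:94936224-94953042, measured 391, 255, 195, 583, 296 and 110.1 FPKM at day 7 and 36.8, 31.8, 12.7, 18.9 and 18.3 without injury (3.54 ± 0.37 (SE), adjusted p = 2.0e-06). Col3a1, the chain of type III collagen, measured 226, 186, 188, 368, 179.5 and 84.9 FPKM at day 7 and 9.72 to 27.3 without injury (3.29 ± 0.37 (SE), adjusted p = 2.1e-06). In replicate 3, where Myog and Myh3 were inside the uninjured range and Sln was below it, both collagens were above every uninjured sample by several fold. Col1a2, Col5a1 and Col14a1 rose by 2.79 ± 0.30, 2.4 ± 0.28 and 2.42 ± 0.30. Col11a1 and Col24a1 were not called.

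Fn1 (fibronectin, chr1:71585520-71653200), on which the new matrix is assembled, measured 52.05, 31.3, 31.5, 43.1, 41.1 and 20.1 FPKM at day 7 and 3.7, 4.57, 1.81, 2.36 and 2.68 without injury (3.21 ± 0.28 (SE), adjusted p = 1.7e-07). It had the smallest adjusted p of the named genes, and its 6 values differed by less than 3-fold. Of 24 matricellular and fiber assembly genes, 21 were called higher and none lower. Postn (periostin) measured 66.5, 62.5, 44.95, 98.5, 37.9 and 11.3 FPKM at day 7 and 0.864 to 6.45 without injury (3.88 ± 0.46 (SE), adjusted p = 4.4e-06). Tnc (tenascin C) rose from 0.199 to 0.725 to 1.27 to 10.6 FPKM (2.08 ± 0.34 (SE), adjusted p = 0.00014), and Mfap2, a protein of elastic microfibrils, from 1.52 to 3.02 to 8.75 to 63.4 FPKM (2.82 ± 0.41 (SE), adjusted p = 4.3e-05). Cyr61, also known as Ccn1, was not called (0.56 ± 0.38 (SE), adjusted p = 0.28).

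Collagen processing and cross-linking enzymes were called higher for 16 of 19. The cross-linking oxidase Lox measured 15.8, 8.07, 9.63, 10.96, 30.4 and 5.97 FPKM at day 7 and 0.999, 1.39, 1.26, 0.963 and 0.994 without injury (2.59 ± 0.28 (SE), adjusted p = 2.0e-06), and Loxl1 and Loxl2 rose by 1.83 ± 0.28 and 1.53 ± 0.20. The collagen chaperone Serpinh1 rose by 1.52 ± 0.23. The prolyl hydroxylases P4ha1 and P4ha2 were not called. Among matrix proteases and inhibitors, 13 of 20 were called higher. Timp1, an inhibitor of matrix metalloproteinases, measured 26.7, 21.5, 14.4, 21.5, 105 and 17.7 FPKM at day 7 and 5.66, 2.94, 4.32, 0.64 and 0.692 without injury (3.06 ± 0.42 (SE), adjusted p = 2.4e-05). The collagenase Mmp14 and the gelatinase Mmp2 rose by 2.14 ± 0.28 and 1.93 ± 0.34, and the neutrophil gelatinase Mmp9 was not called (0.40 ± 0.33 (SE), adjusted p = 0.37). Of 13 proteoglycan and hyaluronan genes, 7 rose, led by Bgn (biglycan, 2.25 ± 0.31), and 1 fell, Has3 (-0.33 ± 0.12). Decorin (Dcn) was not called (0.61 ± 0.26 (SE), adjusted p = 0.076).

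Basement membrane genes moved less, with 5 of 15 called higher, against 15% of all genes, and a median of 0.32. Col18a1 rose by 1.91 ± 0.27 and the linker Nid1 by 1.1 ± 0.25, whereas the main network collagens Col4a1 and Col4a2 measured 54.2, 40.1, 13.3, 54.1, 39.8 and 21.2 FPKM and 41.99, 42.4, 13.8, 52.7, 37.7 and 21.5 FPKM and were not called (0.23 ± 0.31 and -0.021 ± 0.27). Both were lowest in replicate 3. Of 21 genes of TGF-beta, activin and BMP signaling, 11 were called higher. Fstl1, a secreted glycoprotein of mesenchymal cells, rose from 3.82 to 7.48 to 22.4 to 51.8 FPKM (2.58 ± 0.25 (SE), adjusted p = 8.7e-07). The ligand Tgfb1 measured 12.99, 11.6, 2.46, 20.96, 30.03 and 5.3 FPKM at day 7 and 2.46 to 3.71 without injury (1.58 ± 0.36 (SE), adjusted p = 0.0027), with replicate 3 at the lowest uninjured value. The receptor Tgfbr2 rose by 1.03 ± 0.21, and the ligand Tgfb3 was not called (0.41 ± 0.26 (SE), adjusted p = 0.25). Of 11 genes of the insulin-like growth factor axis, 6 were called higher, among them the binding proteins Igfbp4 (2.26 ± 0.30 (SE), adjusted p = 1.5e-05) and Igfbp5 (1.56 ± 0.29 (SE), adjusted p = 0.00056). The imprinted noncoding RNA H19 measured 2005, 1818, 185, 2669, 396 and 133 FPKM at day 7 and 146 to 363 without injury (1.68 ± 0.57 (SE), adjusted p = 0.03), high in replicates 1, 2 and 4, within the uninjured range in replicate 3 and below it in replicate 6.

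Markers of resident stromal cells did not move as a block. Of 14 markers of fibro-adipogenic progenitors, 6 were called higher, against 15% of all genes. Among them were Osr1, the transcription factor of activated progenitors (1.22 ± 0.21 (SE), adjusted p = 0.00027), and Pi16 (1.12 ± 0.31 (SE), adjusted p = 0.0084). The myofibroblast and mural cell list gave 2 higher and 2 lower of 14, close to the 15% and 14.4% of all genes. Acta2, the smooth muscle actin of myofibroblasts and vessel walls, measured 43.3, 63.2, 62.7, 71.6, 109.6 and 81.2 FPKM at day 7 and 47.4 to 113 without injury and was not called (0.019 ± 0.24 (SE), adjusted p = 0.96). The pericyte genes Kcnj8 and Rgs5 fell (-0.96 ± 0.22 and -0.64 ± 0.23), with Rgs5 at 0.074 under the common sum. Endothelial markers were called lower for 4 of 15, Kdr, Aqp1, Cldn5 and Flt1, against 14.4% of all genes. The median of the list, -0.33, was 0.36 under the common sum, where that of all genes was 0.48. Kdr, the main receptor for VEGF, measured 3.76, 4.12, 1.68, 2.67, 1.88 and 4.3 FPKM at day 7 and 10.4, 9.01, 9.39, 9.67 and 9.43 without injury (-1.43 ± 0.19 (SE), adjusted p = 2.0e-05). It was below every uninjured sample in all 6 muscles.

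Tendon, nerve and fat markers varied with the sample. Scx, the transcription factor of tendon cells, measured 28.8, 16.6, 3.89, 28.03, 20.9 and 4.56 FPKM at day 7 and 2.55 to 5.99 without injury (1.5 ± 0.41 (SE), adjusted p = 0.0081). Adipoq (adiponectin) measured 6.82, 0.871, 22.1, 14.4, 0.873 and 11.9 FPKM at day 7 and 0.118 to 1.52 without injury (2.23 ± 0.58 (SE), adjusted p = 0.006), and Cfd, an adipocyte protease of the complement pathway, measured 46.4, 10.2, 309, 133, 9.25 and 174 FPKM (2.53 ± 0.87 (SE), adjusted p = 0.031). Both were highest in replicate 3 and low in replicates 2 and 5, and both calls ended with the read weights (adjusted p = 0.11 and 0.062). Of the adipocyte list, 5 of 10 tested members were called higher, of the tendon list 4 of 11, and of the Schwann cell and nerve list 3 of 11. Over all genes the share called higher was 15%. Summed over its tested members, the adipocyte list spanned 91.2 to 155 FPKM in uninjured and 65.2 to 449 FPKM in injured muscle, the tendon list 73.2 to 136 and 98.9 to 299, and the Schwann cell and nerve list 32.04 to 236 and 21.1 to 1093. The part of such tissue in the muscle results was not tested. None of 6 red blood cell markers was called.

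**Figure D4:**
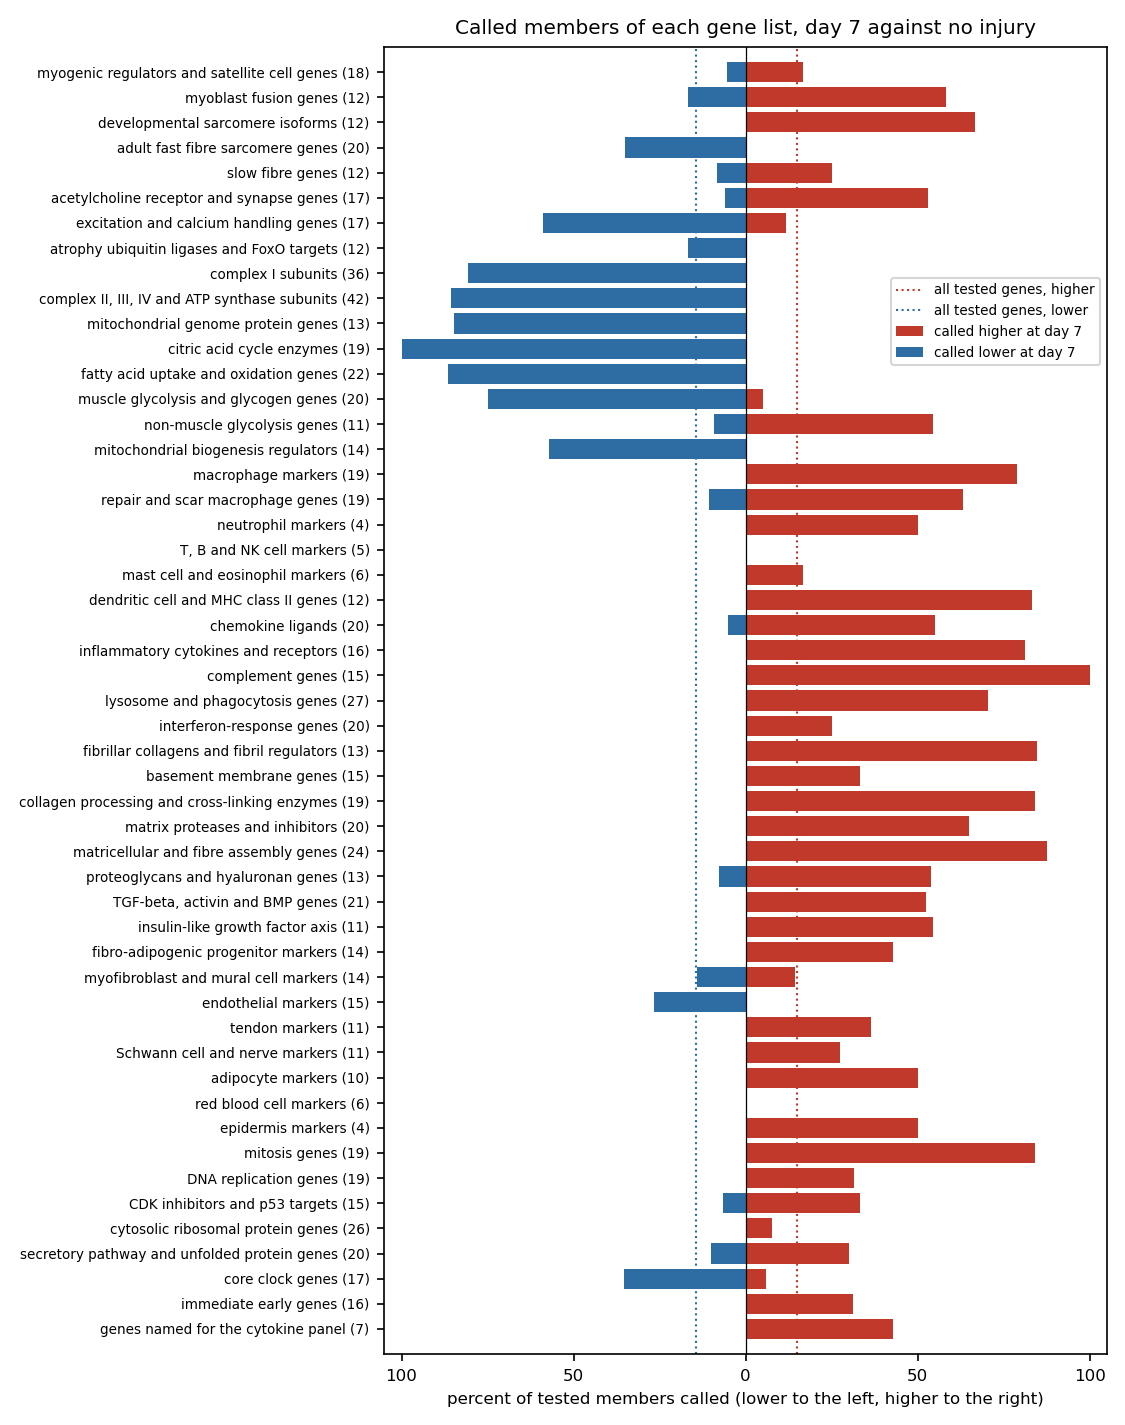
Percent of the tested members of each of 51 gene lists called higher (right) or lower (left) at day 7, with the number tested in parentheses and dotted lines at 15% and 14.4% for all genes. Citric acid cycle enzymes reach 100% on the left and complement genes 100% on the right.

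Mitosis genes, low in uninjured muscle, were raised most in replicate 5. Of 19 mitosis genes, 16 were called higher and none lower, with a median log2 fold change of 0.91. Cdk1, the kinase that starts mitosis, measured 1.4, 1.65, 0.857, 1.49, 8.56 and 0.553 FPKM at day 7 and 0.213, 0.153, 0.0691, 0.0329 and 0.152 without injury (1.29 ± 0.30 (SE), adjusted p = 0.0028). Ccnb2, a cyclin that activates it, measured 1.92, 2.41, 0.843, 3.15, 18.2 and 1.05 FPKM and 0 to 0.625 FPKM (1.51 ± 0.39 (SE), adjusted p = 0.0062). Replicate 5 was the highest and replicates 3 and 6 were the lowest of the 6 for both, and for Cdk1 all 6 were above every uninjured sample. Cdc20 and Plk1, which drive the exit from and the entry into mitosis, rose by 1.52 ± 0.37 and 1.36 ± 0.37. Aurka was not called and measured 1.07, 2.87, 2.27, 1.4, 7.61 and 1.68 FPKM against 2.69 to 5.07 FPKM. Of 19 DNA replication genes, 6 were called higher, against 15% of all genes. Rrm2, a subunit of ribonucleotide reductase, led them (1.63 ± 0.43 (SE), adjusted p = 0.0064), and Pcna was not called (0.40 ± 0.23 (SE), adjusted p = 0.19).

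The promoters of Ccnb2, Cdc20, Cdk1 and Plk1 are shown because they hold TTTGAA, the core of the cell cycle homology region through which complexes such as DREAM and B-Myb are known to time mitosis genes. The motif was searched on both strands and is in capitals as TTTGAA or as its reverse complement. It was found in 12 of 17 mitosis genes with a window and in 20.2% of 27025 genes over all promoters, which is a count of letters and not of bound sites. The windows lie at chr9:70421505-70421804 (minus strand), chr4:118437294-118437593 (minus strand), chr10:69352863-69353162 (minus strand) and chr7:122159185-122159484 (plus strand) of GRCm38.p6.
Ccnb2 promoter: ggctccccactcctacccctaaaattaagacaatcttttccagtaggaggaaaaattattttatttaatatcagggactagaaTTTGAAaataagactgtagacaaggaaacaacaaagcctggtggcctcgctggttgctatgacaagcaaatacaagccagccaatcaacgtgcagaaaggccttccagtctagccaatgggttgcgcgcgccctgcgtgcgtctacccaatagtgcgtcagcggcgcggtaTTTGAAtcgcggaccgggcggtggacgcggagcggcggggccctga
Cdc20 promoter: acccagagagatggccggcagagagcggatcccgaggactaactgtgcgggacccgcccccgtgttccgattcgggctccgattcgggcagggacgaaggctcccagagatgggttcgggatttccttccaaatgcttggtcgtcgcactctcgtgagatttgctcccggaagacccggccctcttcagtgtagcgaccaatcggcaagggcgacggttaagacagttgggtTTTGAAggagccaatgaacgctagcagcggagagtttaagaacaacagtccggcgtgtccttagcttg
Cdk1 promoter: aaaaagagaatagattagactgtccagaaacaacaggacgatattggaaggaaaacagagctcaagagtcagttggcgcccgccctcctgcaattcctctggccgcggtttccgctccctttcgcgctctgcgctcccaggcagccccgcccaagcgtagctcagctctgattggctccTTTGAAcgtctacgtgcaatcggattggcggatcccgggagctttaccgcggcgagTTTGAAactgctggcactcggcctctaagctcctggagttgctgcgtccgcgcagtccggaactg
Plk1 promoter: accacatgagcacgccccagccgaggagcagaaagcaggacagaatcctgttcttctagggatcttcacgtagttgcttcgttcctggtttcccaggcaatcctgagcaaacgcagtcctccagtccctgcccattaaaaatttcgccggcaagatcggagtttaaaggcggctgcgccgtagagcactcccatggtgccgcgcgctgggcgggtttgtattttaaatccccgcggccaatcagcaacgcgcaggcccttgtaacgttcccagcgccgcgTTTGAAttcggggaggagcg
The letters GAGGAAGT, the core bound by the myeloid factor PU.1, were in 2 of 14 macrophage markers with a window, against 3.69% of all genes. The letters TCAAGGTCA, a site of the estrogen-related receptors, were in 0 of 32 complex I genes, 2 of 32 genes of complexes II, III and IV and ATP synthase, 0 of 17 citric acid cycle genes and 0 of 20 fatty acid genes, against 0.466% of all genes.

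Genes that stop the cell cycle rose beside those that drive it. Cdkn1a (p21) measured 85.6, 60.3, 3.62, 139.8, 46.6 and 13.1 FPKM at day 7 and 6.32, 5.43, 5.52, 5.12 and 3.9 without injury (2.55 ± 0.57 (SE), adjusted p = 0.0022), with replicate 3 below the lowest uninjured sample. Cdkn2c, an inhibitor of Cdk4 and Cdk6, lacked that spread and measured 4.68, 4.51, 5.11, 4.89, 7.09 and 5.89 FPKM at day 7 and 1.4 to 2.51 without injury (1.04 ± 0.16 (SE), adjusted p = 0.0001). Cdkn2a was at 0 in all 5 uninjured samples and at 0.508, 1.22, 0.15, 0.867, 2.25 and 0.137 FPKM at day 7 (0.79 ± 0.24 (SE), adjusted p = 0.017). Of the list of CDK inhibitors and p53 targets, 5 of 15 were called higher and 1 lower, Ccng1 (-0.80 ± 0.25), against 15% and 14.4% of all genes. Of 26 cytosolic ribosomal protein genes, 2 were called higher, Rpl3 and Rps19, and none lower, against 15% and 14.4% of all genes. The median log2 fold change of the list depended on the scale. It was 0.27 as deposited, 0.65 under quantile normalization and 0.99 under the common sum. The medians of all genes under the last 2 were -0.051 and 0.48. Rpl3, which striated muscle replaces with the paralog Rpl3l, measured 70.999, 64.4, 39.1, 96.9, 152 and 33.8 FPKM at day 7 and 18.99, 19.4, 20.5, 16.4 and 15.4 without injury (1.84 ± 0.28 (SE), adjusted p = 6.1e-05).

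Genes of the secretory pathway and of the unfolded protein response were called in both directions, as were 15% (higher) and 14.4% (lower) of all genes. Of 20 members, 6 were called higher, among them the disulfide isomerases Pdia4 and Pdia3 (1.13 ± 0.23 and 0.99 ± 0.24) and the collagen secretion factor Creb3l1 (0.86 ± 0.21), and 2 lower, Atf4, the factor of the integrated stress response (-0.80 ± 0.19 (SE), adjusted p = 0.0037), and Dnajb9 (-0.51 ± 0.19 (SE), adjusted p = 0.039), which was at 0.16 under the common sum. Immediate early genes were called higher for 5 of 16, against 15% of all genes. Myc (1.19 ± 0.26 (SE), adjusted p = 0.0021) and Fosl2 (0.76 ± 0.20 (SE), adjusted p = 0.0073) led them, and Nr4a1 was not called (-1.02 ± 0.42 (SE), adjusted p = 0.068).

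Clock genes differed between the groups. Of 17 core clock genes, 6 were called lower and 1 higher, against 14.4% and 15% of all genes. Their median was -0.32, and 0.24 under the common sum, where that of all genes was 0.48. Nr1d1 (REV-ERB alpha, chr11:98767932-98775333) measured 17.4, 21.1, 9.94, 21.4, 16.5 and 5.69 FPKM at day 7 and 58.9, 58.2, 52.4, 61.03 and 61.3 without injury (-1.98 ± 0.23 (SE), adjusted p = 3.0e-06). Its 5 uninjured values lay within 10 FPKM of each other and all 6 injured values were at most 21.4 FPKM. Per2, a repressor of the other arm of the loop, rose from 0.257 to 0.485 to 0.784 to 4.99 FPKM (1.26 ± 0.28 (SE), adjusted p = 0.0021). Arntl (BMAL1) and Bhlhe41 fell by 0.67 and 0.92 on the log2 scale. The time of day of collection was not given in the sources used here, so that it and the injury cannot be told apart for these genes.

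The 6 day 7 muscles differed in how much of the response they showed. Of the 2189 genes called higher, replicates 1 to 6 exceeded every uninjured sample for 2050, 1995, 1527, 2147, 2085 and 1627. Of the 2107 called lower, they lay below every uninjured sample for 1989, 1828, 1212, 2053, 2031 and 1539. Replicates 3 and 6 thus shared most of the called increases. Replicate 3 shared fewer of the increases in myofiber formation genes than of those in matrix and immune genes. Replicate 3 exceeded every uninjured sample for 0 of 8 developmental sarcomere genes, 3 of 7 fusion genes and 4 of 9 synapse genes called higher, but for 11 of 11 fibrillar collagen genes, 15 of 15 macrophage markers and 15 of 15 complement genes. Replicate 6 did so for 6, 5 and 6 of the same 3 muscle lists and for 10, 13 and 15 of the other 3. These counts use calls made with the same samples and are a description.

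**Figure D5:**
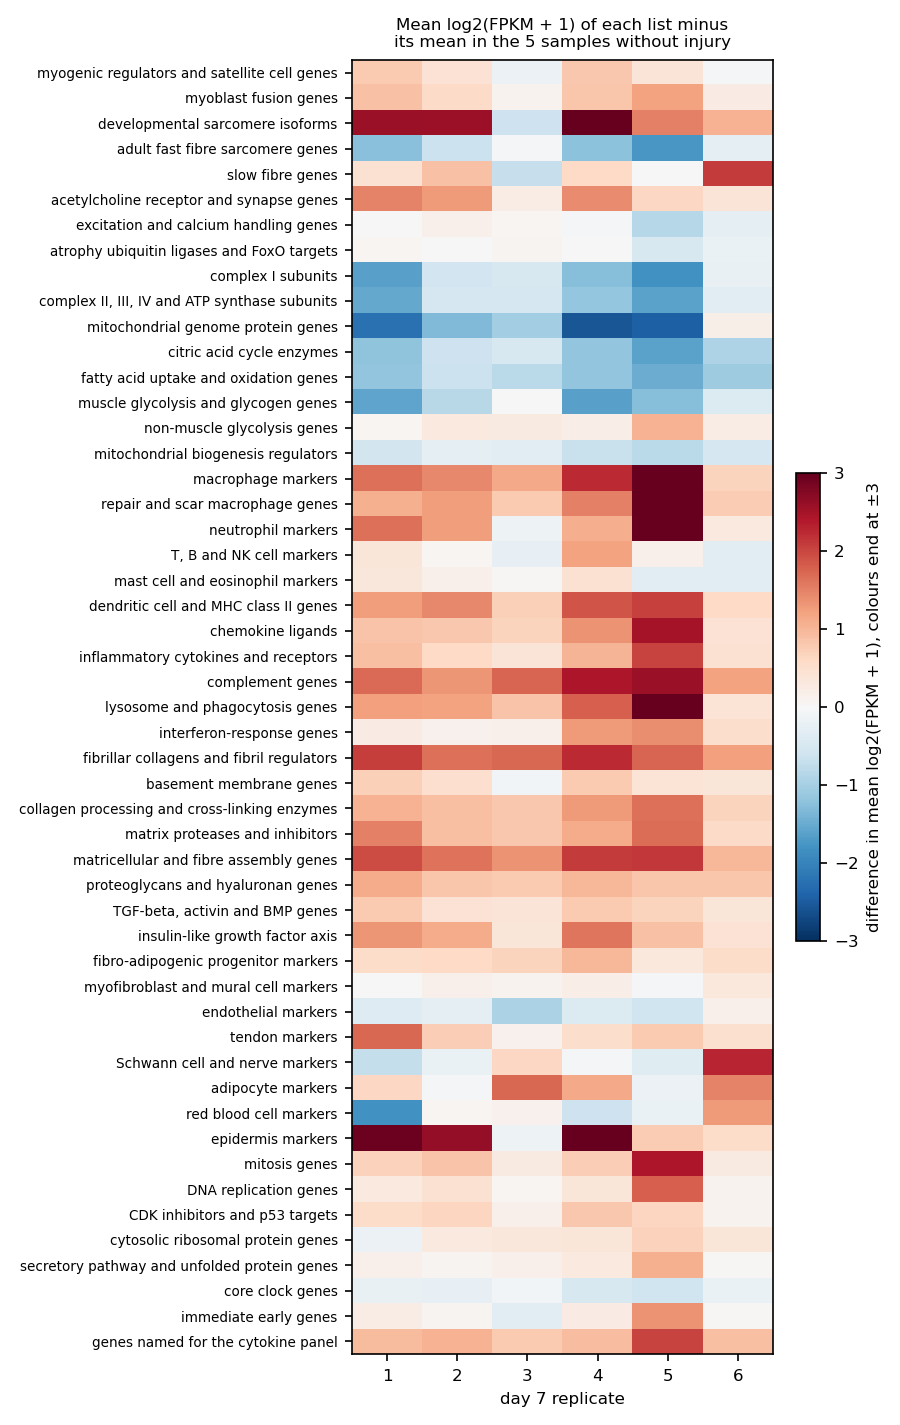
Mean log2(FPKM + 1) over the tested members of each gene list in day 7 replicates 1 to 6, minus the mean of the 5 uninjured samples, with red for higher and blue for lower. Complement and fibrillar collagen genes are red in all 6 columns, developmental sarcomere genes are blue in column 3, and macrophage, lysosome and mitosis genes are deepest in column 5.

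Some values set replicates 3, 5 and 6 apart. Replicate 5 had the highest mean log2(FPKM + 1) of the macrophage markers, with 2.71, 2.51, 2.21, 3.31, 5.0 and 1.73 in replicates 1 to 6 and 0.981 to 1.16 without injury, and of the mitosis genes, with 1.03, 1.19, 0.619, 1.08, 2.77 and 0.619 and 0.322 to 0.366. It also had the lowest mean of adult fast fiber genes, with 9.29, 9.9, 10.5, 9.32, 8.8 and 10.3 in replicates 1 to 6 and 10.5 to 10.6 without injury. The neuropeptide gene Gal was at 73.02 FPKM in replicate 5 and under 1 FPKM in the other 10 samples. Replicates 3 and 6 shared Odf3l2, named for a sperm tail protein, at 91.6 and 97.4 FPKM, against 1.87 to 7.66 FPKM without injury and at most 0.552 FPKM in the other day 7 samples. Igfn1, a muscle protein of the Z-disc, measured 87.7, 66.6, 0.157, 59.2, 3.32 and 5.1 FPKM and was lowest in replicate 3. Gal, Odf3l2 and Igfn1 were not called (1.05 ± 0.80, 0.15 ± 0.93 and 1.78 ± 0.73).

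Few genes separated day 7 from its neighbors in time. The comparison with day 3 called 7 genes (0.0478%), all lower at day 7, and that with day 14 called 49 genes (0.335%), 32 higher and 17 lower. At an unadjusted p under 0.05 these numbers were 2301 and 1821. Cthrc1 and Fn1 were higher at day 7 than at day 14 by 2.20 and 1.34 on the log2 scale. No gene was called higher or lower at day 7 than in every other group by limma (0% in both directions), with 54 and 24 genes at an unadjusted p under 0.05.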

How the data were processed

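Libraries of poly(A) RNA, not marked for strand, were made from whole muscle. Per the labels, the authors aligned reads with HISAT2 2.0.5 and counted them with featureCounts 1.5.0-p3. The deposited values are FPKM, 1 column per sample, computed by the authors from reads and gene length. Multiplying back gave whole reads for 100% of values (tolerance 0.1 reads), and the denominators were 0.747 to 1.44 of the assigned reads in the 11 samples, a scaling between samples that the sources used here do not name. For genes detected in all 27 samples, the median ratio to the geometric mean across samples was 1.01 in each sample. The deposited values were thus already on a median-ratio scale. Overlapping and antisense genes cannot be told apart. Depth is given as assigned reads. Intervals are SEs of the limma fit, which shares a single variance per gene over all 27 samples. Where a gene varied more at day 7, the SE understates that spread. Sln, for example, had an SD of log2(FPKM + 1) of 3.88 at day 7 and 0.308 without injury.

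Groups were read from the treatment labels. Genes with at least 0.5 FPKM in 5 samples were kept (14630), and log2(FPKM + 1) of all 27 samples was fitted with limma 3.58.1 (R 4.3.3, mean per group, variance trend, Benjamini-Hochberg adjustment within a comparison). The test of day 7 against every other group took the largest of the one-sided p-values. On simulated data for day 7 against no injury, 88.5% of 200 changed genes were recovered among 14630 (79% at 2-fold and 98% at 4-fold), with 6 false calls. The simulation drew independent normal values with the same SD in every group. In the data the SD was larger at day 7 for 79.5% of genes, so these rates need not hold there. Genes named were the 15 largest changes in each direction without overlap, up to 5 called members of each of 51 lists with up to 2 in the other direction and up to 2 not called, and the 12 most variable genes at day 7. Genes and lists were chosen with earlier results of these data known. Gene positions are GENCODE M21 (GRCm38), which gave the same start and end for 98.3% of genes found. Promoters are RefSeq windows of GRCm38.p6.

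Alternatives were pseudocounts of 0.1 and 0.5, no filter and a minimum of 1 FPKM, other scalings, no variance trend, the 2 groups alone, sample quality weights, weights from recovered reads, a replicate block, and each sample left out. Median-ratio scaling, among the other scalings, left the deposited scale nearly as it was (4293 genes called) and was no separate check. A few genes that the rule names are not reported here.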

Additional observations from a re-analysis of the deposited data

Results flagged for a closer look

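A sample was singled out where the gap between it and its nearest neighbor, as a share of the range of its group, was above the 95% critical value of Dixon's test. Of 376 groups of samples (188 named genes, both conditions), 70 met this, 53 at day 7 and 17 without injury. The rate of 1 in 20 behind that critical value holds for independent normal measurements. These were FPKM of genes chosen partly for large change or spread, so the count cannot be compared with that rate. In all 70 the sample was the highest of its group, and no cause was tested.

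Replicate 5 at day 7 was that sample for 44 genes. For macrophage, chemokine and other myeloid genes the gap took these shares of the range: C1qa 0.658, C1qb 0.703, C1qc 0.676, Ccl12 0.682, Ccl2 0.954, Ccl6 0.926, Ccl7 0.95, Ccl9 0.903, Cd68 0.803, Chil3 0.981, Csf2ra 0.792, Csf3r 0.747, Ctss 0.845, Cx3cr1 0.758, Fcer1g 0.772, Gpnmb 0.884, Hk3 0.902, Hmox1 0.87, Il1b 0.943, Il3ra 0.636, Itgam 0.913, Lgals3 0.837, Lyz2 0.817, S100a8 0.676, S100a9 0.895, Spp1 0.957, Tnfrsf1b 0.733, Tyrobp 0.795 and Wfdc17 0.851. For the remaining genes, of the cell cycle, secretion, glycolysis and others, they were Aurka 0.725, Ccnb2 0.867, Cdc20 0.869, Cdk1 0.863, Eno1 0.743, Gal 0.991, Myc 0.671, Myof 0.83, Pcna 0.873, Pdia3 0.634, Pdia4 0.791, Pgam1 0.895, Plk1 0.817, Rrm2 0.691 and Timp1 0.865.

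Replicate 6 at day 7 stood apart for Jam2 0.679, Myl2 0.904, Tnnc1 0.742 and mt-Co3 0.848. Replicate 3 did so for Ckm 0.677, Jph1 0.652 and Jph2 0.649. Replicate 4 did so for Krt18 0.704 and Osr1 0.679. Without injury the shares were BC048679 0.92 and Wfdc17 0.757 for replicate 1, Ccl12 1.0, Hk3 0.72, Itgam 0.903, Loxl2 0.888 and Pi16 0.808 for replicate 2, Fcer1g 0.847, Myh8 0.922, Mymk 0.822, Rrad 0.85, Runx1 0.74 and Tnni1 0.728 for replicate 3, Ccl8 1.0 and Jam2 0.863 for replicate 4, Cyr61 0.718 and Mymx 1.0 for replicate 5.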

How the results depend on the processing

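Across the settings tried, the genes called at day 7 by limma numbered 2901 to 5498 apart from the common sum, which gave 6513 (6304 higher and 209 lower, 96.8% higher against 51.0%). With only the 2 groups in the fit, 1434 were higher. Leaving out 1 sample gave 3251 (without day 7 replicate 4) to 5220 (without day 7 replicate 3), and the count of genes higher than in every other group was 0 to 1, the 1 being Prtn3 without day 7 replicate 3. Of 161 called genes named, 158 kept their direction outside the common sum and 121 kept the call as well. The exceptions in direction were under quantile normalization, Tnnt3 at 0.11, Ckm at 0.12 and Tpm2 at 0.064. The common sum ended 32 calls and turned Jam2 (0.044), Rapsn (0.12), Rgs5 (0.074) and Dnajb9 (0.16). Weights from recovered reads ended 11 calls, with adjusted p = 0.067 for Myog, 0.12 for Sln and Mymx, 0.27 for Krt18, 0.18 for Krt8, 0.061 for Chrng, 0.051 for Mybph, 0.059 for Gpnmb, 0.11 for Adipoq and 0.062 for Ccl2 and Cfd. With only the 2 groups in the fit, 27 calls ended, Krt18 (0.056), Krt8 (0.069), Mybph (0.059) and Myh8 (0.061) among them, and no filter on low values ended 18, quantile normalization 14 and sample quality weights 2 (Cfd and Fbxo32). Leaving out day 7 replicate 4 or 5 ended 18 or 16 named calls, Mymx, Trdn, Ckm and Tnnt3 among both, and leaving out a single uninjured sample ended 9 to 15. Of the 161, 24 lost the call with at least 1 sample left out. Mymx did so without day 7 replicate 4 or 5 (adjusted p = 0.053 and 0.058), Ccl2 without uninjured replicate 3 or 5 (0.058 and 0.059), Cdkn2a without day 7 replicate 5 (0.053), and H19 without day 7 replicate 1, 2 or 4 or uninjured replicate 2, 4 or 5 (0.054 to 0.091). The adjusted p reached 0.13 for Tnnt3, 0.12 for Jam2 and Dnajb9, and at most 0.12 for the others.

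Genes not called also changed sign. Under quantile normalization Acta1 was at 0.38, Col4a2 at 0.21 and Trim63 at 0.20, and under the common sum Col4a2 was at 0.69 and Trim63 at 0.62. With sample quality weights Acta2 was at -0.093, Col4a2 at 0.19, Myl2 at -0.13, Odf3l2 at -0.87, Retnla at -0.16 and Trim63 at 0.18. With weights from recovered reads Myl2 was at -0.48, Odf3l2 at -2.69 and Retnla at -0.33, and with pseudocounts of 0.1 and 0.5 Odf3l2 was at -1.15 and -0.23. With 1 sample left out, values ranged from -0.11 to 0.20 for Acta2, -0.059 to 0.55 for Chrne, -0.16 to 0.21 for Col4a2, -0.52 to 0.88 for Myl2, -0.71 to 0.61 for Odf3l2, -0.26 to 0.71 for Retnla and -0.26 to 0.094 for Trim63. The cause was not tested.

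Whether samples with the same replicate number were paired was not tested. The correlations of same-numbered deviations from the group means were -0.148, -0.162, -0.048, -0.048 and -0.002, which cannot settle it. With a replicate block, 4986 genes were called (2495 higher and 2491 lower), against 4296 without it. With a replicate block by the letter in the label, 4964 were called (2499 and 2465). Col4a2 was then at 0.063 and 0.052, Odf3l2 at -0.31 and -0.16, and Myl2 at -0.018 by letter.

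Genes at a few FPKM rest on few reads, and the added 1 shrinks their differences.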

Other observations

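The genes with the largest excess at day 7 over every other group were chosen after their values were seen, and none passed the limma test of that excess (adjusted p = 1). Hp, the hemoglobin scavenger haptoglobin, averaged 28.7 FPKM at day 7, against 1.61 FPKM in uninjured muscle and 8.45, 8.01 and 4.17 FPKM at days 3, 14 and 21. Scd1, a fatty acid desaturase of adipocytes and liver, averaged 24.1, 2.12, 3.37, 6.72 and 5.49 FPKM in the same order. Apoc1, an apolipoprotein, had a mean of 4.06 FPKM at day 7 against 0.215 without injury.

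The genes lower at day 7 than at day 3 included Msln (mesothelin), with means of 1.65 and 7.43 FPKM, and Sprr1a, a protein of injured epithelia and nerves, with 0.411 and 5.59 FPKM. Compared with day 14, Nr1d1 was lower at day 7, with a difference of -1.10 on the log2 scale (adjusted p = 0.024) and the clock output gene Dbp too, with -1.42 (adjusted p = 0.00048), with Dbp at a mean of 18.7 FPKM at day 7, 50.4 at day 14 and 25.1 without injury.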
